A study of Homo sapiens with 17 samples.

Results

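The repressor arm of the circadian clock was examined in human kidney tumors grown in mice, through 8 genes: the repressors PER1, PER2, PER3, CRY1 and CRY2, the kinases CSNK1D and CSNK1E, which phosphorylate PER proteins, and BTRC, the F-box protein that recognizes phosphorylated PER for ubiquitination. These genes were taken by symbol from a normalized count table of 31844 genes, and all 8 had a row. Every one of them averaged 10 or more normalized counts over the tumors, the requirement that left 14522 genes for testing.

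The tumors were xenografts of 786O, a VHL-mutant human clear cell renal cell carcinoma line, implanted in the flanks of nude mice. Mice received the HIF2α antagonist PT2399 or vehicle by gavage at zeitgeber time 0 (ZT0, lights on) or ZT12 (lights off). Bulk RNA was sequenced from 5 vehicle tumors and 5 PT2399 tumors dosed at ZT0, and from 4 vehicle tumors and 3 PT2399 tumors dosed at ZT12. Tumors were frozen several hours after the last dose, so ZT0 and ZT12 name the dosing time and the samples come from the following light or dark phase. All 4 groups shared the cell line, the host strain and the oral route of dosing. The dosing times were kept in separate light-tight boxes, one with a reversed schedule, so box and dosing time cannot be told apart. The labels do not say which tumors shared a mouse. The paper describes implants in each flank, so some tumors may come from the same mouse. It also reports that mice in both ZT12 groups and in the PT2399 ZT0 group died and were excluded. The tests treated every tumor as independent, and p-values measure the spread between tumors.

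As background, CLOCK and BMAL1 bind E-box elements and activate the PER and CRY genes, whose protein products return to the nucleus and inhibit CLOCK and BMAL1. Casein kinase 1 and the SCF ligase containing β-TrCP, the product of BTRC, set how long PER proteins last. BMAL1 belongs to the same bHLH-PAS family as HIF2α, the protein that PT2399 targets. PER1 is also an acute target of glucocorticoid and cAMP signaling, and CRY1 typically peaks later in the cycle than the other E-box genes.

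The libraries held 3495414 to 20328743 reads, and every ZT12 library (at least 8261536 reads) was deeper than every ZT0 library (at most 7428327 reads). Of the markers listed for the tumor line, PAX8 (mean normalized count 1562), KRT8 (5341) and VIM (62721) were high. PAX2 (30.4) was low, and CA9 (8.32) and CDKN2A (1.93) were near 0. Transcripts listed here as host markers were also counted under human symbols: the summed fibroblast list ranged from 42809 to 128147, the leukocyte list from 2279 to 8211 and the skeletal muscle list from 199.9 to 23197. CD14 and PECAM1, defining genes of monocytes and endothelium, were at 0 in 7 and 10 of the 17 tumors, but the other leukocyte and endothelial markers with a row were above 0 in every tumor, among them LYZ (mean 3080), CSF1R (658), TIE1 (245) and TEK (223). PT2399 tumors had the lower median of the summed endothelial list, 643 against 820.3 with vehicle at ZT0 and 526 against 758 at ZT12. The tumor line list had medians of 64512 against 77941 at ZT0 and 75509 against 78166 at ZT12. Most of this sum was VIM, so it mainly follows that gene and is not a measure of tumor cell content. The fibroblast medians were higher in PT2399 tumors, 89599 against 70549 at ZT0 and 78549 against 68490 at ZT12. So were the leukocyte medians, 5597 against 3456 at ZT0 and 3604 against 3264 at ZT12. No list was tested by itself for a part in the results for PT2399. A covariate of host genes, the mean log2 level of 24 of them, was fitted and is given with CRY1 and PER1. It joins lists that moved in opposite directions with PT2399, so it cannot adjust for any single list. Of the host lists, skeletal muscle differed most between groups in mean log2 level, from 3.06 (PT2399 at ZT12) to 5.98 (PT2399 at ZT0). In bulk tumor RNA, fewer cells of a type and less RNA per cell cannot be told apart.

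The promoters of the repressors were compared for the elements bound by the clock and by HIF, since E-boxes tie these genes to the clock and HIF2α is the target of the drug. Windows from 250 bases before to 50 bases after the RefSeq start (GRCh38.p14) were present for PER1, PER2, CRY1 (1 each) and PER3, CRY2 and CSNK1E (2 each), and both strands were searched. CSNK1D and BTRC had no window and were not searched. The canonical E-box CACGTG occurred only in PER1 among these windows, and the E-box variant CACGTT, read on either strand, occurred in PER2, CRY1, one of the CRY2 windows and one of the CSNK1E windows. The matches are shown on the strand of the gene with 10 bases on either side and the element in capitals, so that a CACGTT on the opposite strand appears as its complement.
PER1: cacccaggtcCACGTGcgcccgtgtg
PER2: cgcgcgcggtCACGTTttccactatg
CRY1: acacttcagaAACGTGaggtgccggt
CRY2: acatggtaggAACGTGagggggcggg
CSNK1E: ggcttggctaAACGTGcaccactcgg

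These stretches lie at chr17:8152562-8152587 (minus strand) for PER1, chr2:238288792-238288817 (minus) for PER2, chr12:107093623-107093648 (minus) for CRY1, chr11:45847277-45847302 (plus) for CRY2 and chr22:38318149-38318174 (minus) for CSNK1E. Their elements begin at -173 in PER1, -197 in PER2, -89 in CRY1, -188 in CRY2 and -80 in CSNK1E relative to the RefSeq start of that window. Among 35116 promoter windows, 7.26% held CACGTG and 5.34% held CACGTT. Each of these elements contains ACGTG, which is also the core of the hypoxia response element and was found in 21.4% of windows. The other core letters searched, GCGTG, occurred in PER1, PER3, CRY1 and one CSNK1E window, against 36.5% of all windows. The full cAMP response element TGACGTCA was in none of the windows searched for these genes and in 1.85% of all windows. The matches are a description of letters in these windows and say nothing of binding.

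On the genome build GRCh37, PER1 (chr17:8043790-8059824), PER2 (chr2:239152685-239198743), CRY1 (chr12:107385142-107487327), CSNK1D (chr17:80196899-80231576) and CSNK1E (chr22:38686697-38714089) are on the minus strand. PER3 (chr1:7844351-7905237), CRY2 (chr11:45868669-45904799) and BTRC (chr10:103113790-103317078) are on the plus strand. Of the transcript of PER3, 2095 of 6365 bases lie within the span of UTS2, and of CSNK1D, 3175 of 3681 bases within the span of SLC16A3. Each pair is on opposite strands, and its reads can be told apart only if counting used strand. Of CSNK1E, 1590 of 2817 bases lie within the span of the readthrough gene TPTEP2-CSNK1E on the same strand. Of PER2, 3779 of 6380 bases, and of CRY1, 252 of 2987 bases, lie within spans of opposite-strand lncRNAs. Neither the readthrough gene nor these lncRNAs have a row in the table.

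Levels were first put in order per kilobase of transcript. The kinase CSNK1D was the most abundant, with a median of 577 normalized counts per kb over the 17 tumors and a range of 514 to 671. CSNK1E (median 125 per kb, 101 to 149) and BTRC (59.6 per kb, 34.7 to 82.7) came next, and neither the ranges of CSNK1D and CSNK1E nor those of CSNK1E and BTRC overlapped. CRY1 (49.9 per kb, 28.7 to 66.9) was the most abundant repressor, below BTRC in 14 of 17 tumors and above PER1 in 17 of 17. PER1 (23.8 per kb) and CRY2 (20.6 per kb) could not be ordered, PER1 being the higher in 10 of 17 tumors. PER2 (9.81 per kb) was below CRY2 in every tumor, and PER3 (4.77 per kb) was below PER2 in 14 of 17. The order of CRY1, PER1, CRY2, PER2 and PER3 held for the group medians except in PT2399 tumors dosed at ZT12, where CRY2 (18.2 per kb) stood above PER1 (17.1 per kb).

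**Figure D1:**
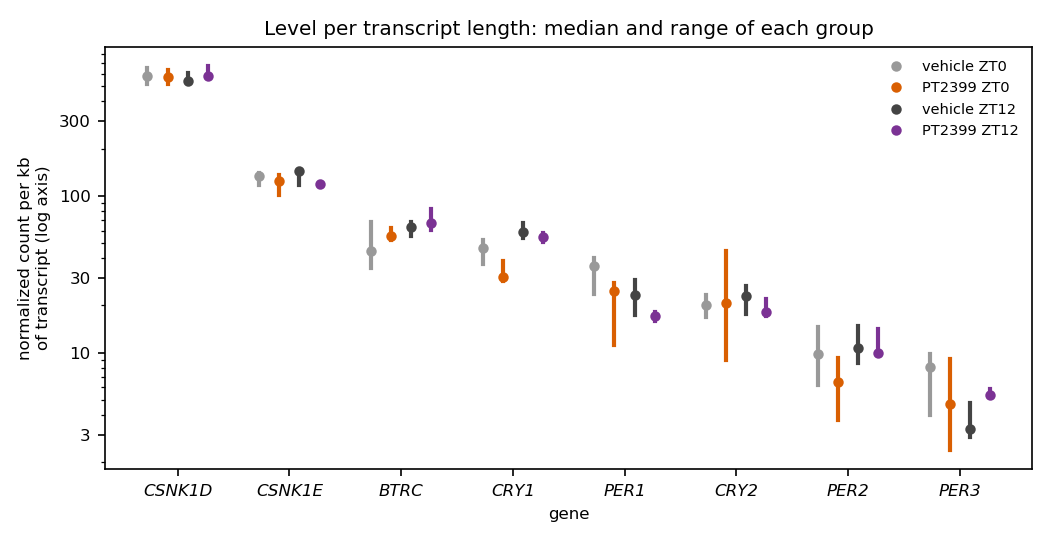
Normalized counts per kilobase of transcript on a log axis for each of the 8 genes, with a point for the median and a bar for the range of each group. CSNK1D stands near 577 per kb, and the repressors run from CRY1 at 49.9 to PER3 at 4.77 per kb.

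The differences between groups were tested with limma on log2(normalized count + 1), with p-values adjusted over the 14522 genes by the Benjamini-Hochberg method and called at an adjusted p under 0.1. Few genes changed with dosing time. Between ZT0 and ZT12 with vehicle, 0 of the 8 genes passed (limma; 0.0551% of all genes did), 3 had an unadjusted p under 0.05 (5.71% of all genes), and edgeR and DESeq2 on the recovered reads also called 0. Between ZT0 and ZT12 with PT2399, limma again called 0 of 8 (0.0482% of all genes), 2 had an unadjusted p under 0.05 (4.76% of all genes), edgeR called 0 and DESeq2 called 1, CRY1. With treatment as a covariate, so that all 17 tumors entered a single comparison of dosing times, 1 of 8 passed, again CRY1, lower at ZT0 (0.227% of all genes passed, 0.172% lower).

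PT2399 against vehicle at ZT0 gave 1 call among the 8, CRY1, which was lower (4.36% of all genes were called, 2.48% lower), and 3 with an unadjusted p under 0.05, CRY1, PER1 and PER2 (14.7% of all genes). The same contrast at ZT12 gave 0 calls by limma (0.496% of all genes), 0 at an unadjusted p under 0.05 (7.33% of all genes) and 0 by edgeR and DESeq2. With dosing time as a covariate, 2 of 8 were called lower with PT2399, CRY1 and PER1 (9.1% of all genes were called, 5.4% lower), and these were also the 2 with an unadjusted p under 0.05 (19.3% of all genes). The difference between the 2 drug effects was called for 0 of 8 by limma, edgeR and DESeq2 (0% of all genes by limma), and 1 member, PER3, had an unadjusted p under 0.05 (1.66% of all genes). The median log2 difference over the 8 genes for PT2399 against vehicle was -0.30 at ZT0 and -0.05 at ZT12, beside 0.00 and 0.02 over all genes tested. The comparisons at each dosing time and those between dosing times share groups.

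**Figure D2:**
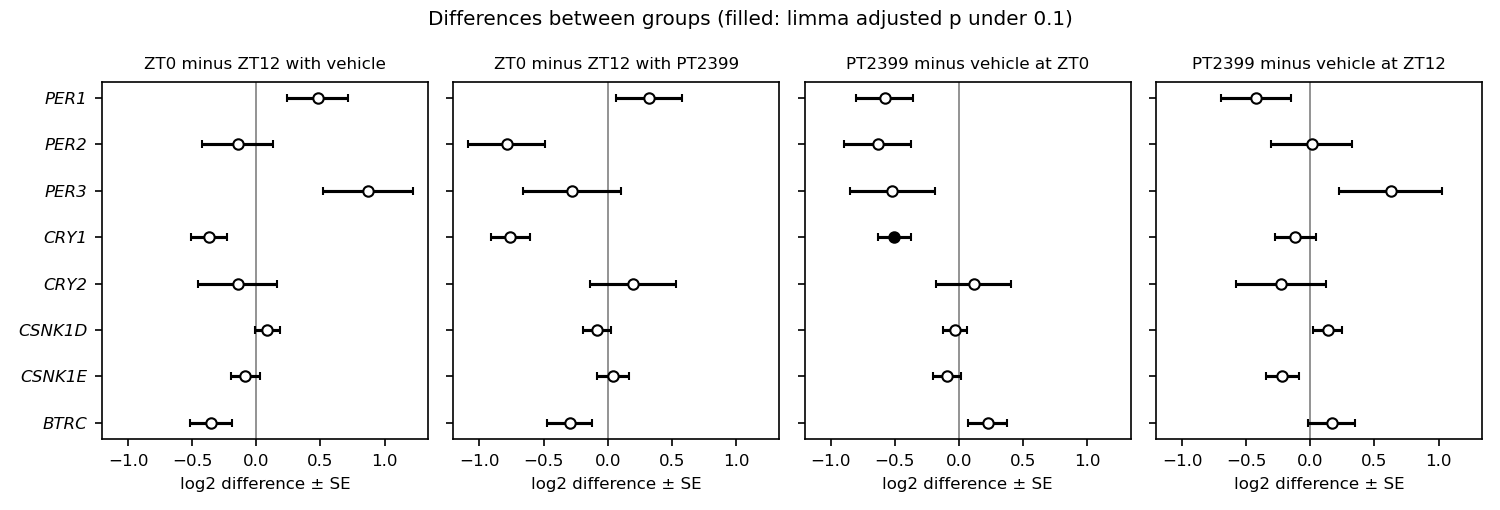
Log2 differences of the 8 genes with their standard errors from limma in the 4 pairwise comparisons, with filled points for an adjusted p under 0.1. The single filled point is CRY1 for PT2399 against vehicle at ZT0, at -0.50.

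CRY1, a strong inhibitor of CLOCK and BMAL1, separated the dosing times most clearly. In vehicle tumors dosed at ZT0 its normalized counts were 131, 149, 157, 139 and 111 (mean 137 ± 17.8, SD, n = 5). In vehicle tumors dosed at ZT12 they were 199.7, 174, 160.2 and 175 (177 ± 16.4, n = 4). Every vehicle tumor dosed at ZT0 was below every vehicle tumor dosed at ZT12, a separation that CRY1 alone of the 8 genes showed and that 3.05% of all genes showed, 1.66% with ZT0 the lower. The log2 difference was -0.37 (SE 0.14), with a limma adjusted p of 0.863 and an exact two-sided permutation p of 0.0159.

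With PT2399 the CRY1 counts were 99.7, 85.6, 90.2, 91.4 and 116 at ZT0 (96.5 ± 11.8, n = 5). They were 174, 163 and 153 at ZT12 (163 ± 10.7, n = 3). The groups did not overlap, which held for 2 of the 8 genes, CRY1 and PER2, and for 3.12% of all genes, 1.71% with ZT0 the lower. The difference of -0.76 (SE 0.15) ranked 8 of 14522 by p but missed the limma threshold (adjusted p = 0.136), and its exact permutation p of 0.0179 was the smallest that 5 against 3 tumors can give. This call was gained with DESeq2 (adjusted p = 0.00116), TMM factors (0.0708), array weights (0.0781) or no filter (0.0792), and without PT2399 ZT0 replicate 5 (0.0941) or vehicle ZT0 replicate 5 (0.0994). Limma did not call it with libraries thinned to equal depth (adjusted p = 0.584) or with the host marker level as a covariate (0.221). Nor was it called without PT2399 ZT12 replicate 2 (limma adjusted p = 0.501) or 3 (0.492), or in any other left-out fit.

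With treatment as a covariate, CRY1 was 1.46-fold lower at ZT0 than at ZT12 on the log2(normalized count + 1) scale (log2 difference -0.55, SE 0.11, limma adjusted p = 0.0375, rank 20). When each ZT0 tumor was set against each ZT12 tumor, 1 of 70 pairs had the higher value at ZT0, since the highest ZT0 tumor (157) lay just above the lowest ZT12 tumor (153). When every library was thinned to 3495414 reads, 3 of 70 pairs had more reads at ZT0, the difference was -0.58 and limma called it (adjusted p = 0.0914). Depth as sequenced and dosing time cannot be told apart. The sum of the 26 host markers with a row, of 27 listed, ranged from 51103 to 130087 and from 62761 to 159579 at ZT0 (vehicle and PT2399), and from 46353 to 108218 and from 70326 to 94994 at ZT12. The host covariate is another measure than this sum, the mean log2 level of 24 host genes. With this host marker level as a covariate the CRY1 difference was -0.56 and the limma adjusted p was 0.105, above the threshold. The call was also lost without PT2399 ZT12 replicate 1 (adjusted p = 0.169), 2 (0.114) or 3 (0.101) or vehicle ZT12 replicate 1 (0.125), with log2 differences of -0.50 to -0.54.

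PT2399 was accompanied by lower CRY1 at ZT0, by 1.42-fold on the same scale (log2 difference -0.50, SE 0.13, limma adjusted p = 0.0478, exact permutation p = 0.0159). PT2399 tumors had the lower value in 24 of 25 pairs, and PT2399 ZT0 replicate 5, at 116, was the tumor that exceeded a vehicle tumor. The call was lost without vehicle ZT0 replicate 2 (adjusted p = 0.104), 3 (0.123) or 4 (0.104) and with libraries thinned to equal depth (-0.50, adjusted p = 0.139). It was kept with the host marker level as a covariate (-0.51, limma adjusted p = 0.0515). At ZT12 the CRY1 difference was -0.12 (SE 0.16, limma adjusted p = 0.933), and the vehicle and PT2399 ranges overlapped. The drug effects at the dosing times differed by -0.39 (SE 0.21), which missed the threshold (limma, Benjamini-Hochberg adjusted p = 1.00), so a difference between dosing times in the CRY1 response was not shown. Over both dosing times CRY1 fell by 0.35 on the log2 scale with PT2399 (SE 0.11, limma adjusted p = 0.061). The call was kept with the host marker level as a covariate (-0.34, limma adjusted p = 0.0735). That call was lost without filter (adjusted p = 0.101), after thinning (0.153) and without PT2399 ZT0 replicate 2 (0.105) or 4 (0.103), PT2399 ZT12 replicate 3 (0.101), vehicle ZT0 replicate 2 (0.118), 3 (0.124) or 4 (0.114), or vehicle ZT12 replicate 1 (0.11).

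**Figure D3:**
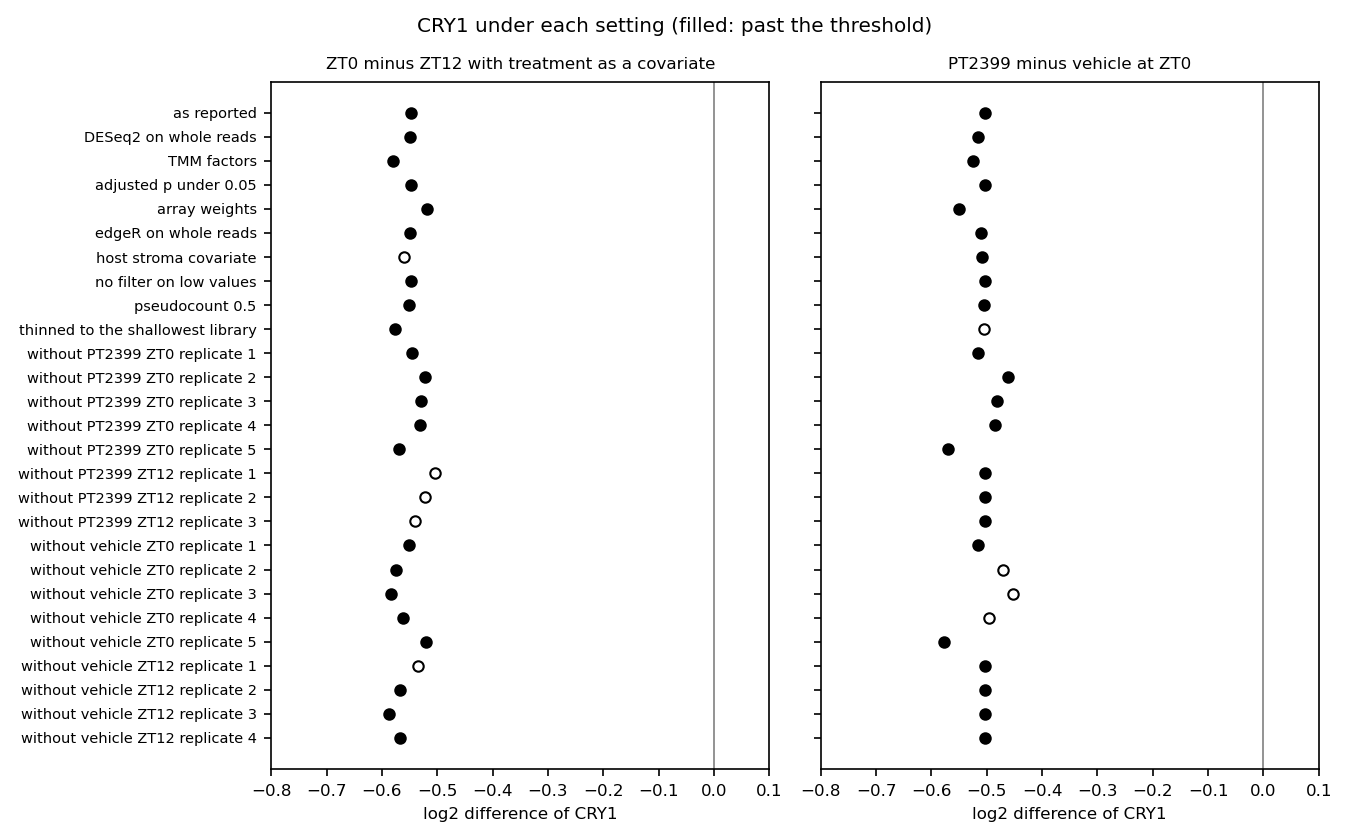
Log2 difference of CRY1 between dosing times with treatment as a covariate (left) and between PT2399 and vehicle at ZT0 (right), as reported, under the processing settings listed on the axis and with each tumor left out, with filled points where the threshold was passed. All points drawn lie below 0, and among them the open ones are at the host covariate and at 4 left-out tumors on the left and at thinning and 3 left-out tumors on the right. The fit with replicate numbers as a block is not drawn, and both calls were lost with it (limma adjusted p = 0.276 on the left, 0.107 on the right).

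CRY2, the second cryptochrome, showed no difference past the test in any comparison. Its counts were 76.0, 69.5, 95.7, 83.4 and 94.3 in vehicle tumors at ZT0 and 73.3, 104, 86.0 and 109.6 at ZT12, and these ranges overlapped. In PT2399 tumors they were 134, 75.2, 85.2, 185 and 37.1 at ZT0 and 75.1, 90.7 and 70.3 at ZT12. The PT2399 ZT0 group spanned both the highest and the lowest CRY2 values of the series and had an SD of 0.87 on the log2 scale, against 0.19 to 0.26 in the other groups. The lowest value, in PT2399 ZT0 replicate 5, rested on 17 reads. Log2 differences of CRY2 ranged from -0.23 to 0.20 over the 4 pairwise comparisons, with standard errors of 0.29 to 0.35.

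**Figure D4:**
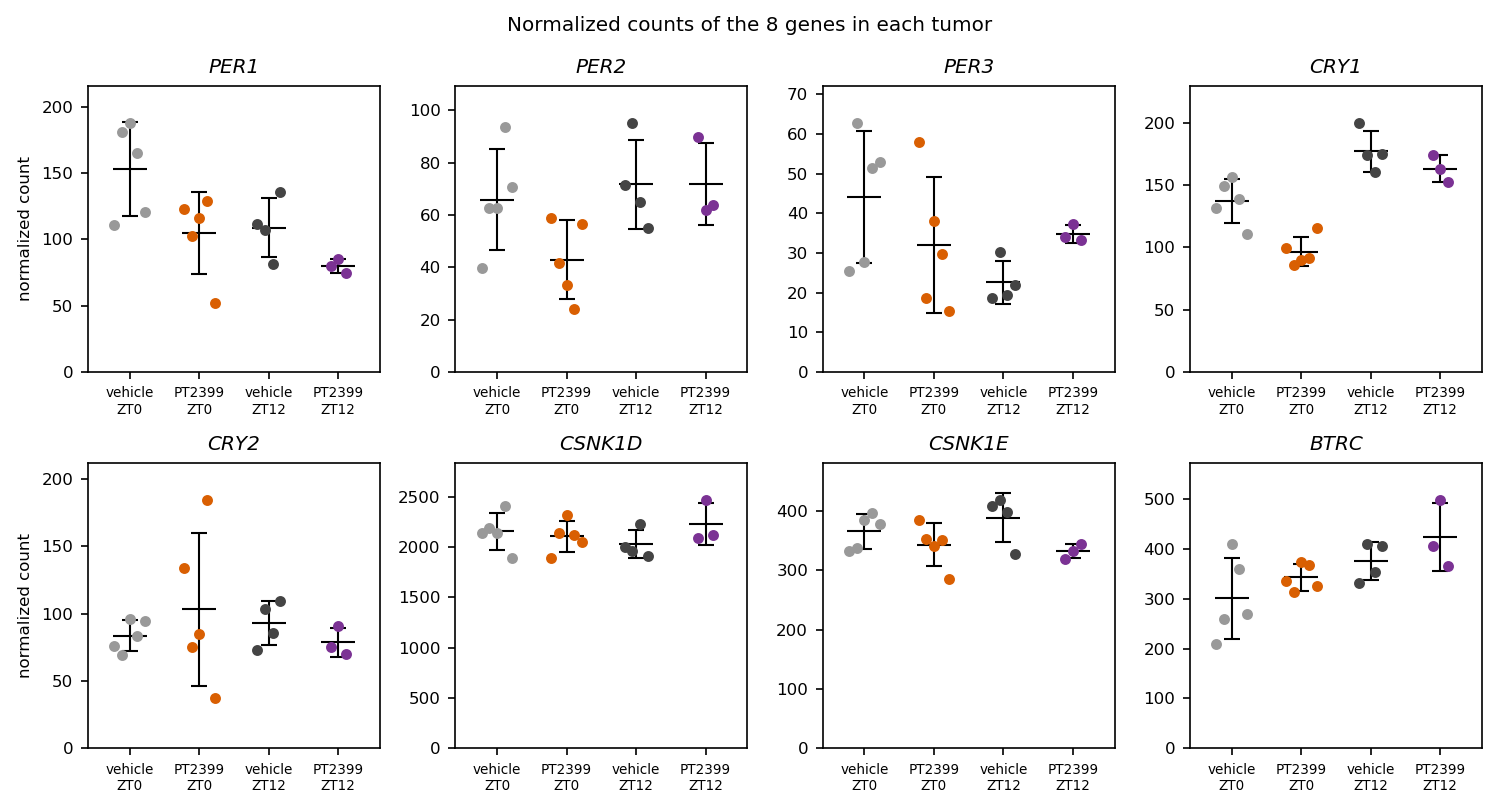
Normalized counts of each gene in each of the 17 tumors by group, with a horizontal line for the group mean and error bars for the SD. CRY1 lies lower at ZT0 than at ZT12 with either treatment, whereas CSNK1D stays between 1893 and 2470.3.

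Among the PER genes, PER1 had its highest values in vehicle tumors dosed at ZT0, at 111, 181, 188, 166 and 121 (153 ± 35.3, n = 5). Vehicle tumors dosed at ZT12 had 111, 107, 81.6 and 136 (109 ± 22.2, n = 4). The vehicle groups overlapped, and the log2 difference of 0.48 (SE 0.24) did not pass (limma adjusted p = 0.863, exact permutation p = 0.0873). PT2399 tumors had 123, 103, 116, 129 and 52.3 at ZT0 (105 ± 30.9, n = 5) and 79.9, 85.4 and 74.3 at ZT12 (79.9 ± 5.54, n = 3).

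The PER1 difference between PT2399 and vehicle was -0.58 (SE 0.22, limma adjusted p = 0.212, exact permutation p = 0.0714) at ZT0. At ZT12 it was -0.42 (SE 0.27, limma adjusted p = 0.823, exact permutation p = 0.0857), and the 2 effects differed by -0.16 (SE 0.35). Over both dosing times PER1 fell by 0.52 on the log2 scale with PT2399 (SE 0.17, limma adjusted p = 0.0781), or 1.43-fold. The call was kept with the host marker level as a covariate (-0.50, limma adjusted p = 0.0641). PT2399 ZT0 replicate 5, with 52.3 on 24 reads, was far below its group, and without it the difference was -0.38 (adjusted p = 0.122). The call was also lost without filter (0.152), after thinning (-0.46, 0.16), and without PT2399 ZT0 replicate 2 (0.104), PT2399 ZT12 replicate 2 (0.104) or 3 (0.138), vehicle ZT0 replicate 2 (0.146), 3 (0.153) or 4 (0.143), or vehicle ZT12 replicate 1 (0.12), 2 (0.109) or 4 (0.105).

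PER2 differed in range between dosing times only in the PT2399 tumors. With PT2399 its counts were 58.9, 41.6, 33.1, 23.8 and 56.7 at ZT0, each below the 89.9, 61.9 and 63.8 at ZT12. The log2 difference was -0.79 (SE 0.30), which missed the limma threshold (adjusted p = 0.974), and the exact permutation p was 0.0357. In vehicle tumors the counts were 39.6, 62.7, 62.6, 93.6 and 70.7 at ZT0 and 71.6, 95.01, 65.0 and 55.1 at ZT12, and these ranges overlapped (-0.14, SE 0.28). PT2399 against vehicle gave -0.63 (SE 0.26, limma adjusted p = 0.242) at ZT0 and 0.01 (SE 0.31) at ZT12, a difference of -0.64 (SE 0.41). Without vehicle ZT0 replicate 1, whose PER2 was the lowest of its group, the ZT0 value was -0.80 and passed (adjusted p = 0.0966). The lowest PER2 value, in PT2399 ZT0 replicate 4, rested on 12 reads.

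PER3, the least abundant repressor, rested on 7 to 71 reads per tumor. Its counts in vehicle tumors were 25.3, 62.7, 27.6, 51.5 and 53.0 at ZT0 and 18.6, 30.3, 19.5 and 21.9 at ZT12. The log2 difference of 0.87 (SE 0.35) had an exact permutation p of 0.0476 and did not pass the limma threshold (adjusted p = 0.863). PT2399 tumors had 57.9, 18.5, 38.1, 29.8 and 15.3 at ZT0 and 34.0, 37.4 and 33.1 at ZT12, with overlapping ranges (-0.28, SE 0.38). At ZT12 every PT2399 tumor lay above every vehicle tumor, a separation that 1 of the 8 genes and 12.4% of all genes showed, 6.2% with PT2399 the higher, with a log2 difference of 0.63 (SE 0.40, limma adjusted p = 0.823, exact permutation p = 0.0571). At ZT0 the PER3 value was -0.52 (SE 0.33) and the ranges overlapped, as they did for all 8 genes in that comparison (2.79% of all genes did not overlap). The 2 drug effects differed by -1.15 (SE 0.52), with an unadjusted limma p of 0.0395 and an adjusted p of 1.00.

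The kinases and BTRC changed in none of the comparisons as reported. CSNK1D, the most abundant member, was steady: 2140.3, 2193, 2138, 2411 and 1893 in vehicle and 1893, 2142, 2323, 2119 and 2052 in PT2399 tumors at ZT0. At ZT12 its counts were 2006, 1965, 2229 and 1911 in vehicle and 2089, 2470.3 and 2125 in PT2399 tumors. Its SD over all 17 tumors was 0.11 on the log2 scale, and its 4 pairwise differences lay between -0.08 and 0.13 with standard errors of 0.09 to 0.11. CSNK1E counts were 333, 337, 385, 396 and 379 in vehicle and 385, 353, 342, 352 and 286 in PT2399 tumors at ZT0. At ZT12 they were 409, 419, 399 and 328 in vehicle and 319.9, 334 and 344 in PT2399 tumors. The CSNK1E difference between PT2399 and vehicle at ZT12, -0.22 (SE 0.13, limma adjusted p = 0.796), became a call with array weights (-0.25, adjusted p = 0.0932).

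BTRC counts were 209, 259, 409, 359 and 268 in vehicle tumors at ZT0 and 332, 410.4, 353 and 404 at ZT12. In PT2399 tumors they were 334, 313, 374, 367 and 325 at ZT0 and 406, 498 and 366 at ZT12. The ranges overlapped with either treatment, and the ZT0 tumor was the higher in 14 of 70 pairs. With treatment as a covariate the difference was -0.33 (SE 0.12), with an unadjusted limma p of 0.0105 and an adjusted p of 0.372. This was the fourth member with an unadjusted p under 0.05 in that comparison, beside CRY1, PER1 (0.41, SE 0.17) and PER2 (-0.44, SE 0.21), where 9.71% of all genes reached it.

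Ratios within a tumor do not depend on the size factor of its library. The ratio of CRY1 to PER1 normalized counts was 1.19, 0.822, 0.833, 0.839 and 0.915 in vehicle tumors dosed at ZT0 and 1.79, 1.63, 1.96 and 1.29 in those dosed at ZT12. In PT2399 tumors it was 0.809, 0.831, 0.776, 0.708 and 2.21 at ZT0 and 2.18, 1.91 and 2.05 at ZT12. Apart from PT2399 ZT0 replicate 5, the ZT0 tumors lay between 0.708 and 1.19 and the 7 ZT12 tumors between 1.29 and 2.18. This ratio was chosen after the values of both genes had been seen, and it was not tested. PER1 to PER2 ranged from 1.71 to 3.00 in vehicle tumors at ZT0 and from 1.13 to 2.47 at ZT12, and CRY1 to CRY2 from 1.17 to 2.15 and from 1.59 to 2.72, so those ranges overlapped.

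**Figure D5:**
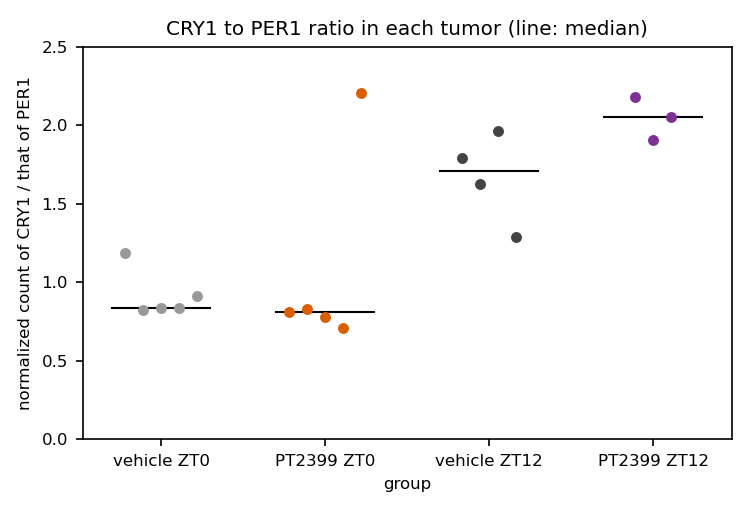
Ratio of the normalized counts of CRY1 and PER1 in each tumor by group, with a line for the group median. The ZT12 tumors lie at 1.29 or above, and the ZT0 tumors at 1.19 or below except for a PT2399 tumor at 2.21.

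Other genes of the pathway were counted from lists drawn up with earlier results of these data known. Of 27 further regulators of PER and CRY, among them FBXW11, a paralog of BTRC, all 27 were tested. None passed in any of the 4 pairwise limma comparisons, where 3 (ZT0 against ZT12 with vehicle), 0 (with PT2399), 2 (PT2399 at ZT0) and 0 (at ZT12) had an unadjusted p under 0.05. Over all genes, 5.71%, 4.76%, 14.7% and 7.33% had such a p-value in these comparisons. The edgeR test also called 0 in these comparisons, and DESeq2 called 1, PRKAA2, with PT2399 at ZT0. TIMELESS, a replication fork protein that binds PER and CRY, fell by 0.43 on the log2 scale with PT2399 with dosing time as a covariate (SE 0.14, limma adjusted p = 0.0781). This was the only limma call among the 27, in a model where 9.1% of all genes were called and 5.4% were lower. The mean counts of TIMELESS were 413 and 419 in vehicle and 309.7 and 309 in PT2399 tumors at ZT0 and ZT12. The median log2 differences of the list were 0.06 and 0.14 between dosing times with vehicle and PT2399, and 0.02 and -0.03 for PT2399 at ZT0 and ZT12.

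Of 18 symbols for the rest of the clock, 16 had a row and 14 were tested, RORB and HLF being under the filter. NR1D1, the heme-binding repressor of BMAL1, was higher at ZT0 with vehicle (log2 difference 2.44, SE 0.25, limma adjusted p = 0.000105) and with PT2399 (2.27, SE 0.28, adjusted p = 0.0013), and NR1D2, its paralog, was higher at ZT0 with vehicle (1.02, SE 0.19, adjusted p = 0.077). The ZT difference of CRY1 was thus opposite in sign to that of NR1D1 and of smaller size. With PT2399 at ZT0, BHLHE40, another E-box repressor, was lower (-0.61, SE 0.14, limma adjusted p = 0.0234). None of the 14 passed at ZT12 by limma or edgeR, where 4 had an unadjusted limma p under 0.05 (7.33% of all genes). DESeq2 called 2 there, BHLHE40 and NR1D2. With the covariate models, NR1D2 rose (0.57, SE 0.14, adjusted p = 0.0163) and BHLHE40 fell (-0.61, SE 0.10, adjusted p = 0.00102) with PT2399, where 9.1% of all genes were called.

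Because PER1 is an acute target of glucocorticoid and cAMP signaling, 12 genes of these pathways were counted. None of the 12 passed between dosing times with either treatment by limma or edgeR, and DESeq2 called 1, FOS, with PT2399. With vehicle and with PT2399, 3 and 1 had an unadjusted limma p under 0.05 (5.71% and 4.76% of all genes). With PT2399 at ZT0, limma and edgeR called 1 of 12, DUSP1, a phosphatase (-0.51, SE 0.15, limma adjusted p = 0.0718), where limma called 4.36% of all genes. DESeq2 called 2 there, DUSP1 and FKBP5. At ZT12 none was called by limma, edgeR or DESeq2 (1 had an unadjusted limma p under 0.05, as 7.33% of all genes did). With dosing time as a covariate DUSP1 (-0.47, SE 0.11, adjusted p = 0.0131) and FKBP5, a glucocorticoid-induced chaperone (-0.75, SE 0.24, adjusted p = 0.0701), were lower, beside 5.4% of all genes called lower. These genes were named after their values had been seen.

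The genes most like each member were sought over the 17 tumors among the 10370 genes averaging 50 or more normalized counts, by the root mean square difference of log2 values centred on their means. Nearest to CRY1 were FGFR1OP (0.21), INTS6 (0.22) and SGCB (0.22), where the median gene stood at 0.44. Among the genes near PER1 were KIAA0355 (0.26) and MTR (0.28), and among those near PER2 were DDX59 (0.28) and TPX2 (0.28). CRY2 was nearest to RAB5B (0.24), and PER3 stayed farthest from its nearest gene, UBLCP1 (0.40). Nearest to CSNK1D and BTRC were BAG6 (0.08) and NAPB (0.16), and DDX23 was among the genes near CSNK1E (0.09). Among the members themselves the smallest distance between repressors was that of PER2 and CRY1 (0.37) and the largest that of PER2 and CRY2 (0.78), while CSNK1D and CSNK1E stood at 0.19. CRY1 also stood at 0.37 from CSNK1E. Genes that vary little stand near one another by this measure, so a small distance need not mean a shared pattern. The tumors share library depth and dosing box, and the distances are descriptions.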

How the data were processed

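RNA-seq of 17 tumors was deposited by the authors as a single table of normalized counts (signal: read counts divided by DESeq2 size factors). The study's methods name SeqMan NGen, ArrayStar and GRCh37 with library preparation and sequencing that differ from the labels, whereas the submitters' processing notes name STAR, hg38 and DESeq2, so the build and counting behind the values are uncertain. How mouse reads were handled and whether counting used strand are not given in the sources used here. A total row was left out.

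Each value was a whole multiple of what 1 read was worth (0.368 to 2.18 normalized counts, tolerance 0.01), in 100% of values in every library, so read numbers were recovered (3495414 to 20328743 per tumor, median 7371632). The precision of low genes is limited by these reads. No pair of replicates was a repeated library.

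Groups came from the labels. Main tests used limma 3.58.1 (R 4.3.3) with an intensity trend on log2(normalized count + 1), genes with a mean of at least 10 (14522 kept, 17322 left out), and Benjamini-Hochberg adjusted p under 0.1. One fit had 4 group means, and another had treatment and dosing time as additive terms, after the study's use of ZT as a confounder. A pseudocount shrinks differences of low genes. Two-sided exact permutation tests over tumors accompanied the 4 pairwise comparisons. Alternatives were pseudocount 0.5, no filter, TMM factors, edgeR 4.0.16 and DESeq2 1.42.0 on recovered reads, array weights, a replicate block, thinning to 3495414 reads, the mean log2 level of 24 host genes as a covariate, adjusted p under 0.05, and leaving out each of the 17 tumors. The scripts were tested on simulated data. Transcript lengths came from GENCODE 44 lifted to GRCh37 and promoters from RefSeq GRCh38.p14.

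The 8 genes are named with all values. For the lists of other regulators and of the clock, every gene passing a comparison is named (at most 5), and the glucocorticoid and cAMP list is given by counts. Some items that these rules would name are not reported here. The members and lists were chosen with earlier results of these data known.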

Additional observations from a re-analysis of the deposited data

Results flagged for a closer look

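A tumor was set apart where its gap to the nearest tumor of its group, divided by the whole range of that group, exceeded Dixon's 95% critical value, in groups of 4 or 5 tumors. Of 51 groups of values tested, 5 held such a tumor, where chance gives about 1 in 20, or 2.55. The ratios reuse counts of genes that were also tested singly, so the groups and their flags are not independent. PT2399 ZT0 replicate 5 appeared in 3 of the 5: its PER1 count of 52.3 was the lowest, against 103 to 129 in the others (0.748 of the range), its CRY1 to PER1 ratio of 2.21 was the highest, against 0.708 to 0.831 (0.918), and its CRY1 to CRY2 ratio of 3.12 was the highest, against 0.495 to 1.14 (0.755). This library was the shallowest, with 3495414 reads.

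The CRY1 to PER1 ratio of vehicle ZT0 replicate 1 was 1.19, against 0.822 to 0.915 in its group (0.746 of the range). BHLHE40 was lowest in PT2399 ZT0 replicate 4, at 473 against 573 to 619 (0.715).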

How the results depend on the processing

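Depth limits the low genes, PER3 and PER2 above all, and the ZT0 libraries, which were shallower than the ZT12 libraries. Depth and dosing box moved with dosing time and host RNA varied among tumors, and their part was not tested beyond thinning and the host covariate. As reported, 8, 7, 633, 72 and 0 genes were called between dosing times with vehicle and with PT2399, for PT2399 at ZT0 and at ZT12, and for the difference of those effects, and 1322 and 33 for PT2399 and for dosing time with the other as a covariate. CRY1 kept its sign under every alternative in all 7 comparisons, and its lost and gained calls are given with its values, other than those under the replicate block, which are given here. The cause of the changes below was not tested, except that fewer tumors or reads entered the left-out and thinned fits and the stricter threshold asks for more.

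Counts over all genes moved as follows. DESeq2 called 24, 27, 315, 3 and 167 genes between dosing times with vehicle and with PT2399, for PT2399 at ZT12, for the difference of effects and for dosing time with the covariate, and edgeR 123 for PT2399 at ZT12. Array weights gave 18, 12, 1957, 2872 and 163 for vehicle, PT2399, PT2399 at ZT12 and the PT2399 and dosing time covariate models. TMM factors gave 5 with vehicle and 59 with the treatment covariate, the host covariate 4 with PT2399 and 20 with the treatment covariate, thinning 4 with vehicle, and no filter 18 with PT2399 and 394 for PT2399 at ZT0. An adjusted p under 0.05 left 5 with vehicle, 349 and 37 for PT2399 at ZT0 and ZT12, and 846 with ZT as a covariate. Leaving out a tumor gave 3 to 8 with vehicle, 2 to 8 with PT2399, 347 to 882 and 15 to 145 for PT2399 at ZT0 and ZT12, and 15 to 63 for dosing time with the covariate.

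Among the 8 genes, the count for PT2399 at ZT0 was 0 after thinning and 0 to 2 without a tumor. At ZT12 it was 1 with array weights, CSNK1E. With ZT as a covariate it was 0 at an adjusted p under 0.05, 0 without a filter, 0 after thinning and 0 to 2 without a tumor. For dosing time with PT2399 it was 1 with DESeq2, 1 with TMM factors, 1 with array weights, 1 without a filter and 0 to 1 without a tumor, each time CRY1, and with treatment as a covariate it was 0 with the host covariate and 0 to 1 without a tumor. The CSNK1E difference with ZT as a covariate was called with array weights.

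Replicate numbers did not pair the tumors: the labels give no shared mouse or batch, same-numbered tumors deviated together (r over 0.1) in 3 of 22 pairs, and 1 of 17 tumors correlated best with its own number. A replicate block moved the counts to 5 and 4 between dosing times with vehicle and with PT2399, 39 for PT2399 at ZT12 and 9 for dosing time with the covariate. Among the 8 genes the block gave 0 calls for PT2399 at ZT0, 1 with ZT as a covariate (PER1) and 0 for dosing time with the covariate. With the block CRY1 was thus not called in any of these (log2 differences of -0.50, -0.35 and -0.54, limma adjusted p = 0.107, 0.105 and 0.276). It turned the sign of PER2 for PT2399 at ZT12 (-0.032), of CRY2 with ZT as a covariate (0.022) and of CSNK1E for dosing time with the covariate (0.0026).

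All other sign changes concerned log2 differences that were not called. PER2 for PT2399 at ZT12 was 0.01 as reported, -0.013 with TMM factors, -0.047 with array weights, -0.0016 with edgeR, -0.074 with the host covariate and -0.16 to 0.15 without a tumor, and PER2 between dosing times with vehicle was -0.28 to 0.023 without a tumor. CRY2 for PT2399 at ZT0 was -0.013 with array weights and -0.14 to 0.43 without a tumor. With ZT as a covariate CRY2 was 0.069 with DESeq2, 0.063 with edgeR and -0.18 to 0.14 without a tumor. CRY2 between dosing times with PT2399 was -0.033 with the host covariate and -0.056 to 0.52 without a tumor, and with treatment as a covariate -0.018 with TMM factors, -0.15 with the host covariate and -0.11 to 0.14 without a tumor. PER3 with ZT as a covariate was 0.034 with DESeq2, 0.11 with array weights, 0.031 with edgeR and -0.16 to 0.10 without a tumor, and between dosing times with PT2399 it was 0.076 after thinning. CSNK1E between dosing times with PT2399 was -0.039 after thinning and -0.0034 to 0.10 without a tumor. CSNK1D between dosing times with the covariate was -0.022 with TMM factors, -0.012 after thinning and -0.016 to 0.051 without a tumor. Without a tumor CSNK1D ranged from -0.078 to 0.0093 for PT2399 at ZT0 and from -0.00088 to 0.064 with ZT as a covariate, and the difference of drug effects ranged from -0.063 to 0.18 for BTRC and from -0.27 to 0.074 for PER1.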
